A study of Mus musculus with 6 samples.

Results

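Oxygen sensing in type-2 innate lymphoid cells (ILC2s) was followed through 9 genes: the hypoxia-inducible factor subunits Epas1 and Hif1a, the hydroxylases Egln1, Egln2, Egln3 and Hif1an, the ubiquitin ligase gene Vhl, and the target genes Vegfa and Bnip3. The genes were chosen by name among the 53278 genes of the deposited table, with the normalized counts of these 6 libraries already known. Their values with DTA-1 and with isotype control are therefore given as a description, with no p-value for any of them. How many of them met a threshold is printed only next to the share over all genes, and nothing is read from it. The ILC2s came from the visceral adipose tissue (VAT) of C57BL/6 mice aged 8 weeks, which had received rm-IL33 intraperitoneally, 1 µg per injection and 3 injections. They were sorted as lineage-negative cells that carry CD45, ST2 and CD117, and all of them were cultured with rm-IL-2 and rm-IL-7, each at 10 ng/mL. One group of 3 libraries was cultured with DTA-1 (5 µg/mL), an agonistic antibody to the costimulatory receptor GITR, and the other group of 3 with the isotype control antibody, a rat IgG2b. The labels give 48 h of culture, while the study's results text gives a shorter time. The sample titles name the control group for the isotype, whereas their descriptions and the columns of the deposited table mark the same libraries as PBS. The labels name no change in oxygen. They also do not say whether libraries came from separate mice or cultures, so each error below covers only the spread between libraries.

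Cells sense oxygen through the stability of the HIF alpha subunits. In oxygenated cells the prolyl hydroxylases encoded by the Egln genes modify HIF-1α (Hif1a) and HIF-2α (Epas1), and the VHL protein then directs them to the proteasome. A further hydroxylase, factor inhibiting HIF (Hif1an), blocks their contact with coactivators. When oxygen falls the subunits accumulate, pair with ARNT and switch on genes of glycolysis, vessel growth and mitochondrial turnover. The mRNA level of a HIF subunit therefore does not give its protein level, and no protein was measured in these libraries.

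HIF dimers bind DNA at a short core, often ACGTG or a form that starts with G. ACGTG was searched on both strands in the RefSeq promoters (GRCm38.p6), which run from 250 bases before a gene's start to 50 bases after it. Promoters were held for 8 of the 9 genes, and Epas1 was not among them. ACGTG was found at 8 sites in 6 of these genes (6 of their 10 promoters), against 19.6% of all 32851 promoters of that length. The other form, GCGTG on either strand, was in 5 of the 10 promoters, against 32.4% of all. Hif1an and Vhl had no match in these windows, which says only that these letters were not there. The Vegfa promoter at the start of the gene had no match either, and the Vegfa site below belongs to a start inside the gene. At 3 sites the core read CACGTG, which holds ACGTG on both strands. The sites are shown because the pathway contains its own target genes, such as Egln3. A match is a description, and binding was not measured here. Each line gives the gene's strand 5′ to 3′, and capitals mark the core.
Hif1a, 135 bases before the start, chr12:73907720-73907749, plus strand: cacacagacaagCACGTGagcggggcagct
Hif1a, 70 bases before the start, chr12:73907785-73907813, plus strand: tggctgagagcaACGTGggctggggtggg
Egln1, 68 bases before the start, chr8:124949306-124949334, minus strand: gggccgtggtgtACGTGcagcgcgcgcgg
Egln2, 48 bases before the start, chr7:27166834-27166862, minus strand: agcctcctgtcaACGTGcggttcgcgcac
Egln2, 4 bases before the start, chr7:27166789-27166818, minus strand: ccgggccgctgtCACGTGcccagcgggcga
Egln3, 229 bases before the start, chr12:54204087-54204115, minus strand: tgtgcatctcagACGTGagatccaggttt
Vegfa, 211 bases before a start inside the gene, chr17:46025358-46025386, minus strand: ggagtgcgtgccCACGTcagagagcaaca
Bnip3, 108 bases before the start, chr7:138909597-138909626, minus strand: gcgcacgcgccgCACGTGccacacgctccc
In the Vegfa line the core lies on the opposite strand and is read as CACGT. The Hif1a and Egln1 promoters belong to RefSeq starts within the gene spans of the deposited table. Their cores shown above lie inside those spans too.

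The libraries held 30569351 to 35131329 counts, so that a count of 0 allows up to 3 counts, or 0.0854 to 0.0981 CPM (counts relative to the library total), for counting error only. Normalized counts below are CPM after TMM scaling, and where a gene has 3 values per group they stand in the order of replicates 1, 2 and 3. All 14 ILC2 marker genes, among them Gata3, Il1rl1, Rora and Il7r, had at least 5 normalized counts in every library. Epas1 is known for its high level in endothelial cells, and the endothelial genes Cdh5, Emcn and Cldn5 had 0 counts in all 6 libraries. The summed level of the 8 endothelial markers was 19.9 to 27.1 normalized counts in isotype control and 12.2 to 20.3 in DTA-1, most of it Pecam1. The summed level was 2.82 to 9.41 and 0.288 to 3.98 for 8 fibroblast markers, 6.44 to 12.2 and 8.67 to 11.9 for 8 macrophage markers, 40.1 to 53.3 and 45.9 to 50.3 for 6 T cell markers, and at most 0.454 for 6 adipocyte markers, whose Cidec, Lep and Car3 were at 0. C1qb and Cd8a were at 0 as well, and most of the T cell sum was Cd3g (36.2 to 48.6 over the 6 libraries). The part of all these cell types in the results was not tested. The library labelled DTA-1 replicate 1 lay closer to the isotype control libraries (chi-square of the counts per degree of freedom 10.1 to 11.9) than to DTA-1 replicates 2 and 3 (29.0 and 30.5). The log2 ratios of the 9 genes, and the calls in each pathway list, are also given without it. That library was singled out by its values in this same comparison. Leaving it out can enlarge differences and shrink the spread, so adjusted p values without it are a description and no independent test.

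Epas1, which encodes HIF-2α (chromosome 17, 86753907 to 86833410, plus strand), stood higher in every DTA-1 library than in any isotype control library. It had 6.64, 8.18 and 6.86 normalized counts in the isotype control libraries, against 11.2, 13.3 and 11.3 in the DTA-1 libraries. These values rest on 235, 287 and 242 counts and on 345, 416 and 360 counts. The groups did not overlap, and the library labelled DTA-1 replicate 1, which lay near the isotype control libraries over the whole transcriptome, was on the DTA-1 side for Epas1. The mean was 7.23 ± 0.834 with isotype control and 11.9 ± 1.21 with DTA-1 (± SD of 3 libraries), which the edgeR fit over all genes gave as a log2 ratio of DTA-1 to isotype control (log2 fold change) of 0.72 (SE 0.17). The log2 ratio was 0.77 with DTA-1 replicate 1 left out, and it lay between 0.64 and 0.82 whichever library was left out. Of the 14361 genes tested, 2.83% had a higher log2 ratio than Epas1. In bulk RNA fewer cells of a type and less RNA per cell cannot be told apart, so this difference may lie in how many cells carry the transcript or in how much each carries.

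Hif1a, which encodes HIF-1α (chromosome 12, 73901375 to 73947530, plus strand), was the most abundant of the 9 genes. It had 824, 967 and 890 normalized counts in the isotype control libraries, against 951, 1108 and 1137 in the DTA-1 libraries. DTA-1 replicates 2 and 3 were above all isotype control libraries, whereas DTA-1 replicate 1 fell between them, so that the groups overlapped. The mean was 894 ± 71.8 with isotype control and 1065 ± 100.3 with DTA-1 (± SD of 3 libraries), a log2 ratio of 0.25 (SE 0.08), and 0.33 with DTA-1 replicate 1 left out. Only 0.613% of the tested genes had a higher mean normalized count than Hif1a, against 61.3% for Epas1. These shares take no account of gene length, so they do not rank expression levels. Hif1a shares its span with AC124712.1 on the same strand and with the antisense RNA Gm15283. The counts of these were at most 1.26% and 0.299% of those of Hif1a in any library, and how reads in shared parts were assigned is not stated.

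**Figure D1:**
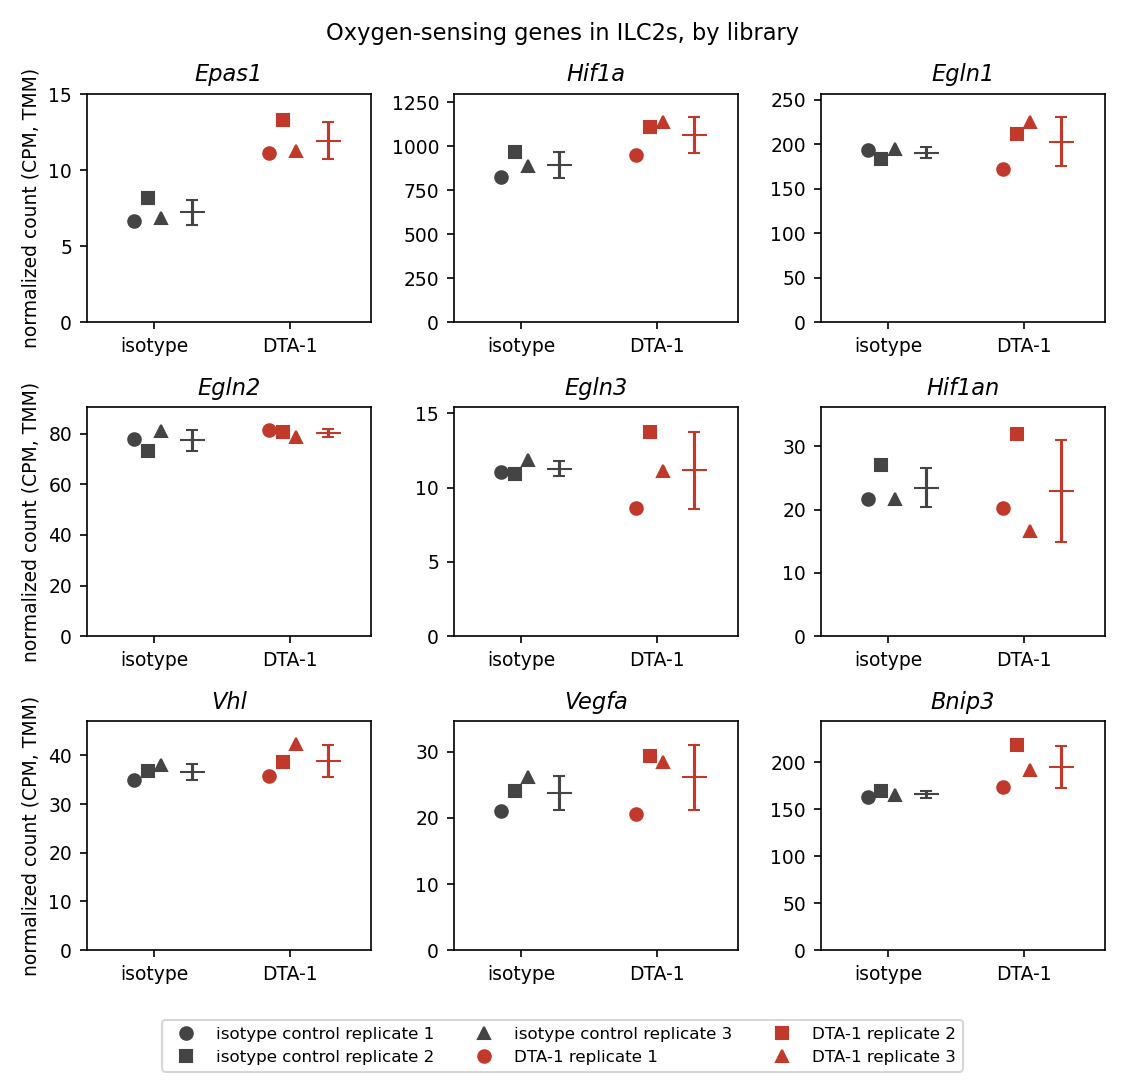
Normalized counts (CPM after TMM, y axes from 0) of the 9 oxygen-sensing genes in isotype control (grey) and DTA-1 (red), with circles, squares and triangles for replicates 1, 2 and 3 and a bar for the mean ± SD. The 3 DTA-1 values of Epas1 (11.2 to 13.3) all lie above the isotype control values (6.64 to 8.18), while for Hif1a, Egln1 and Vegfa the DTA-1 circle lies within or below the isotype control points.

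The proportion of the alpha subunits within each library does not depend on how libraries are scaled to each other. Per kb of exon, 0.850, 0.892 and 0.813 Epas1 reads were counted for each 100 Hif1a reads in the isotype control libraries, against 1.24, 1.27 and 1.05 in the DTA-1 libraries. The mean ratio was 0.852 ± 0.0398 with isotype control and 1.18 ± 0.120 with DTA-1 (± SD of 3 libraries). The ratio was higher in all DTA-1 libraries than in all isotype control libraries, but Hif1a still exceeded Epas1 per kb by 78.8-fold to 123-fold in every library.

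The order of the 9 genes was taken from normalized counts per kb of exon, since levels of different genes can be compared only per length. In isotype control the order was Hif1a (152 ± 12.2 per kb), Bnip3 (73.2 ± 1.61), Egln1 (53.1 ± 1.68), Egln2 (27.6 ± 1.45), Vhl (12.2 ± 0.528), Vegfa (5.56 ± 0.605), Egln3 (4.23 ± 0.193), Hif1an (3.55 ± 0.464) and Epas1 (1.29 ± 0.149, all ± SD of 3 libraries). From Hif1a down to Vegfa the ranges of neighbours over the 6 libraries did not overlap. Vegfa and Egln3 overlapped in their ranges, as did Egln3 and Hif1an. Within each of the 6 libraries, however, the order of the 9 genes was the same. Epas1 was the lowest in all 6 libraries, also in DTA-1, where it had 2.13 ± 0.217 per kb (± SD of 3 libraries). The exon lengths are merged over all annotated transcripts, so that a gene with long rare exons appears lower.

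**Figure D2:**
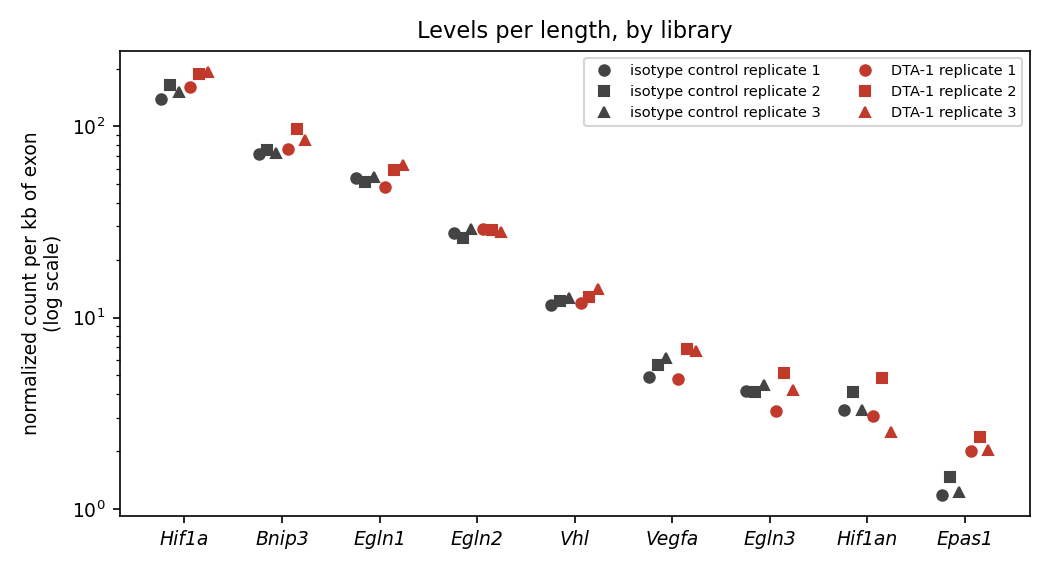
Normalized counts per kb of exon (log scale) of the 9 genes in each isotype control (grey) and DTA-1 (red) library, with circles, squares and triangles for replicates 1, 2 and 3, ordered by the isotype control mean. The levels span from about Hif1a at 152 to Epas1 at 1.29 per kb, and the order of the 9 genes is the same in every library.

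The prolyl hydroxylases differed far more from each other than between the groups. Egln1, which encodes PHD2, the main oxygen sensor of most cells (chromosome 8, 124908587 to 124949324, minus strand), had 193, 184 and 195 normalized counts in isotype control replicates 1, 2 and 3. In DTA-1 replicates 1, 2 and 3 it had 172, 212 and 225. DTA-1 replicate 1 lay below all isotype control libraries and DTA-1 replicates 2 and 3 above all of them. The log2 ratio of Egln1 was 0.09 (SE 0.09) with all libraries, 0.20 without DTA-1 replicate 1 and 0.01 without DTA-1 replicate 3.
Egln2, which encodes PHD1 (chromosome 7, 27158658 to 27166802, minus strand), was the steadiest of the 9 genes, with 73.0 to 81.1 normalized counts in isotype control and 78.5 to 81.4 in DTA-1. Its highest library was only 1.12-fold above its lowest, and its log2 ratio was 0.05 (SE 0.07), and 0.04 without DTA-1 replicate 1.
Egln3, which encodes PHD3, itself a HIF-induced gene in many cells (chromosome 12, 54178981 to 54203860, minus strand), had 11.1, 10.9 and 11.8 normalized counts in the isotype control libraries, against 8.60, 13.7 and 11.1 in the DTA-1 libraries. The DTA-1 libraries of Egln3 lay on both sides of the isotype control range. Its log2 ratio of -0.01 (SE 0.19) changed sign with the library left out, from -0.19 without DTA-1 replicate 2 to 0.14 without DTA-1 replicate 1.

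As a share of the reads per kb over the Egln genes, Egln1 made up 61.9% to 62.9% in isotype control and 59.7% to 66.1% in DTA-1. The share of Egln2 was 32.1% to 33.0% in isotype control and 29.5% to 36.2% in DTA-1, and that of Egln3 was 4.84% to 5.07% and 4.03% to 5.55%. For each of them the mean share of the groups differed by less than the spread between the DTA-1 libraries.

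**Figure D3:**
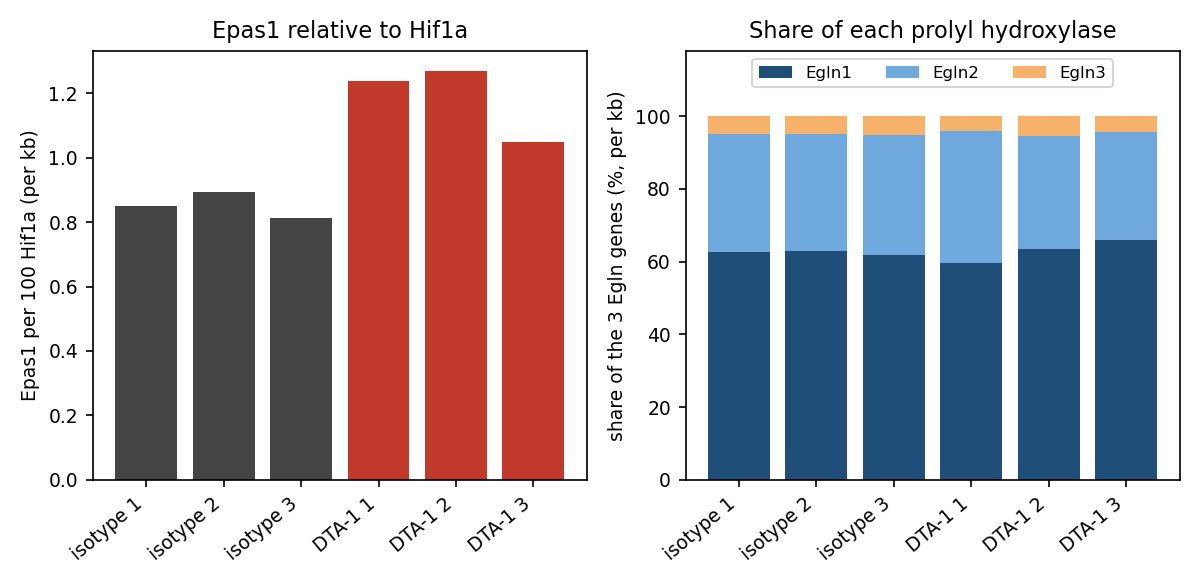
Left, Epas1 reads per 100 Hif1a reads, per kb of exon, in each library (isotype control grey, DTA-1 red). Right, the share of Egln1, Egln2 and Egln3 in the reads per kb of the Egln genes (%). The Epas1 ratio is 0.813 to 0.892 in isotype control and 1.05 to 1.27 in DTA-1, while Egln1 makes up 59.7% to 66.1% in every library.

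The asparaginyl hydroxylase gene Hif1an (chromosome 19, 44562850 to 44576274, plus strand) was the most variable within DTA-1. It had 21.7, 27.0 and 21.7 normalized counts in the isotype control libraries, against 20.2, 32.0 and 16.6 in the DTA-1 libraries. The highest and the lowest values both came from DTA-1 libraries, and the coefficient of variation was 13.1% with isotype control and 35.2% with DTA-1. The log2 ratio of Hif1an was -0.03 (SE 0.21) and ranged from -0.35 without DTA-1 replicate 2 to 0.15 without DTA-1 replicate 3, with 0.05 without DTA-1 replicate 1.
Vhl, whose product recognizes hydroxylated HIF alpha (chromosome 6, 113623959 to 113631633, plus strand), had 34.9, 36.8 and 38.0 normalized counts in the isotype control libraries, against 35.8, 38.5 and 42.4 in the DTA-1 libraries. The groups overlapped, with means of 36.6 ± 1.58 and 38.9 ± 3.30 (± SD of 3 libraries) and a log2 ratio of 0.09 (SE 0.10), which was 0.15 without DTA-1 replicate 1.

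Of the target genes, Bnip3, which encodes a mitophagy receptor of the outer mitochondrial membrane (chromosome 7, 138890836 to 138909519, minus strand), had 163, 170 and 165 normalized counts in isotype control replicates 1, 2 and 3. It had 174, 219 and 192 in DTA-1 replicates 1, 2 and 3, so that every DTA-1 library lay above every isotype control library. The margin was narrow for DTA-1 replicate 1, and the mean was 166 ± 3.65 with isotype control and 195 ± 22.7 with DTA-1 (± SD of 3 libraries). The log2 ratio of Bnip3 was 0.23 (SE 0.08), and it lay between 0.15 and 0.31 whichever library was left out, the latter without DTA-1 replicate 1.
Vegfa, the gene of the main angiogenic growth factor (chromosome 17, 46016993 to 46032369, minus strand), had 21.1, 24.1 and 26.2 normalized counts in the isotype control libraries, against 20.5, 29.3 and 28.5 in the DTA-1 libraries. DTA-1 replicate 1 was the lowest of all libraries and the other DTA-1 libraries were the highest, and the groups overlapped. The log2 ratio of Vegfa was 0.13 (SE 0.15). It was 0.28 without DTA-1 replicate 1 and 0.21 without isotype control replicate 3, but 0.05 without DTA-1 replicate 2, 0.06 without isotype control replicate 1 and 0.07 without DTA-1 replicate 3.

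**Figure D4:**
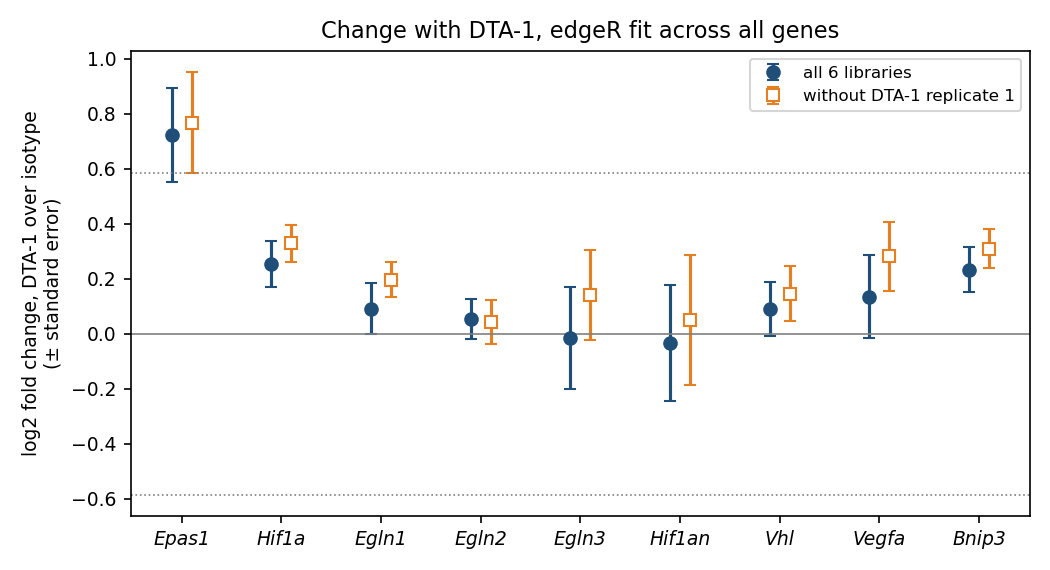
Log2 ratio of DTA-1 over isotype control with its SE for the 9 genes, from the edgeR fit across all genes, with all 6 libraries (filled circles) and without DTA-1 replicate 1 (open squares). Dotted lines mark 1.5-fold. Epas1, at 0.72 and 0.77, lies above the dotted line, and the other 8 genes lie within it.

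The low-count filter kept all 9 genes. Genes were called differentially expressed where the fold reached 1.5 in either direction and the adjusted p stayed under 0.05. With all 6 libraries 0 of the 9 genes and 0 of the 14361 genes tested met this by edgeR's quasi-likelihood test (0%), and 337 genes (2.35%) met it with the unadjusted p. By limma-trend 0 genes met it, and by DESeq2's Wald test 20 genes did (0.0983% of 20351). With DTA-1 replicate 1 left out, 111 of 14911 genes (0.744%) were differentially expressed, and 0 of the 9. In 2 of the 9 genes, Epas1 and Bnip3, every DTA-1 library lay above every isotype control library, and in 0 of them every DTA-1 library lay below. Among all genes tested 5.26% had the first pattern and 6.03% the second. Of the 9 genes, 7 had a higher mean with DTA-1 and 2 a lower one, and their median log2 ratio was 0.09 against -0.01 for all genes tested. The library labelled DTA-1 replicate 1 was within the isotype control range for 2 of the 9 genes, above it for 3 (Epas1, Egln2 and Bnip3) and below it for 4 (Egln1, Egln3, Hif1an and Vegfa).

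Genes whose profile over the 6 libraries was nearest to that of Epas1 were sought among 8723 genes with a mean of at least 10 normalized counts (Epas1 itself had 9.58). The measure was the root mean square difference of log2 values (normalized count plus 1), each profile centred on its own mean. The nearest were Tmx4 (0.118), Oas3 (0.124), Egr1 (0.155), Spg11 (0.157) and Zfp961 (0.160), against a median of 0.360 over all genes compared. A flat profile would score 0.345, the deviation of Epas1 from its own mean. Tmx4 encodes a thioredoxin-related membrane protein, Oas3 an oligoadenylate synthetase and Egr1 an early response transcription factor. Oas3 had 14.8 ± 0.359 normalized counts with isotype control and 24.4 ± 2.37 with DTA-1 (± SD of 3 libraries), and its DTA-1 replicate 1 value of 22.1 was above the isotype control libraries, as for Epas1. This likeness follows from how Oas3 was chosen. Many genes can come close to any profile of 6 values, so the list is a description only.

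Outside the 9 genes, the partners and regulators of the HIF subunits were measured with a list of 18 genes. Of these 5 had a higher and 13 a lower mean with DTA-1, with a median log2 ratio of -0.07 against -0.01 for all genes tested. This median turned to 0.03 without isotype control replicate 1. None was differentially expressed by edgeR, limma-trend or DESeq2 (0 genes). For 1, Hif3a, the unadjusted p by edgeR was under 0.05 with a change of at least 1.5-fold, against 2.35% of all genes tested. Elob, Rbx1 and Os9 were the most abundant by normalized count. Elob and Rbx1 belong to the VHL ubiquitin ligase complex, and the log2 ratios were -0.02, -0.02 and 0.06 (edgeR adjusted p = 0.969, 0.960 and 0.868). The groups did not overlap for 4 of the 18 genes, 2 higher (Arnt and Siah2) and 2 lower (Limd1 and Ep300) with DTA-1, against 5.26% and 6.03% of all genes tested. These and Hif3a are named here after their values were seen. Siah2 had a log2 ratio of 0.11, Limd1 of -0.21 and Ep300, a coactivator of HIF, of -0.30 (edgeR adjusted p = 0.794, 0.627 and 0.632). Arnt, the partner that both alpha subunits need, had 49.6 ± 3.64 normalized counts with isotype control and 59.4 ± 2.62 with DTA-1 (± SD of 3 libraries), a log2 ratio of 0.26 (SE 0.09, edgeR adjusted p = 0.632). Hif3a, a further alpha subunit gene, had 1.86 ± 1.03 and 0.875 ± 0.252 normalized counts (± SD of 3 libraries), a log2 ratio of -1.08 (SE 0.49, edgeR adjusted p = 0.691).

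Genes of glucose uptake and glycolysis that HIF can induce formed a further list, and 17 of its 19 members had a higher mean with DTA-1. None was differentially expressed by edgeR, limma-trend or DESeq2 (0 genes, and 0 at an unadjusted p with 1.5-fold), and the median log2 ratio was 0.19 against -0.01 for all genes tested. Eno1, which encodes enolase, had 3579, 3423 and 3495 normalized counts in the isotype control libraries, against 3471, 4298 and 4234 in the DTA-1 libraries. DTA-1 replicates 2 and 3 were above all isotype control libraries and DTA-1 replicate 1 was among them, and the log2 ratio was 0.19 (SE 0.08, edgeR adjusted p = 0.657). Aldoa and Ldha, the other most abundant genes of the list, had log2 ratios of 0.16 and 0.13 (edgeR adjusted p = 0.692 and 0.732).
With DTA-1 replicate 1 left out the median of the glycolytic list was 0.27, and 8 of the 19 genes had an edgeR adjusted p under 0.05, all of them higher and all short of 1.5-fold. They were Hk2, Pfkl, Aldoa, Tpi1, Gapdh, Pgam1, Eno1 and Slc16a3, named after their values were seen. Of all genes 1.35% were higher by that rule, and 0.342% were lower. The library left out was picked from these same data, so the adjusted p values without it are a description. Hk2, a hexokinase gene, was then at 0.42 and Slc16a3, a lactate exporter gene, at 0.45, with edgeR adjusted p values of 0.0343 and 0.00823.

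Another list held 20 further HIF targets, of which 19 were tested and Adm, with 36 counts in all, was removed by the filter. None was differentially expressed with all libraries (0 genes by edgeR, limma-trend and DESeq2). For 1, Bhlhe40, the unadjusted p by edgeR was under 0.05 with 1.5-fold, against 2.35% of all genes tested. The median log2 ratio was 0.05, with 12 genes higher and 7 lower. Bhlhe40, which encodes a transcriptional repressor also known as DEC1, had 237, 267 and 254 normalized counts in the isotype control libraries, against 261, 456 and 436 in the DTA-1 libraries. P4ha2, a collagen prolyl hydroxylase gene, had 48.4, 52.8 and 50.9 with isotype control, against 45.0, 94.3 and 85.7 in DTA-1. For both genes DTA-1 replicates 2 and 3 stood far above all other libraries, and DTA-1 replicate 1 did not. The log2 ratios were 0.61 for Bhlhe40 and 0.56 for P4ha2 (SEs 0.17 and 0.21, edgeR adjusted p = 0.627 and 0.653).
With DTA-1 replicate 1 left out Bhlhe40 rose by a log2 ratio of 0.82 (edgeR adjusted p = 0.000204) and P4ha2 by 0.83 (edgeR adjusted p = 0.00129). They were 2 of 20 genes tested in that comparison, where 0.583% of all genes were called higher. Across the alternatives tried, adjusted p ran from these values up to 0.999 for each gene. The lowest come from leaving out a library picked from these same data, so they are a description. Ero1l, an oxidase gene of the endoplasmic reticulum and the most abundant of the list, had 5191 ± 322 and 6299 ± 893 normalized counts (± SD of 3 libraries) and a log2 ratio of 0.28 (edgeR adjusted p = 0.632). With DTA-1 replicate 1 left out, Ero1l was at 0.39 (edgeR adjusted p = 0.00813) and Tfrc, the transferrin receptor gene, at 0.53 (edgeR adjusted p = 0.00825). In that comparison 4 of the 20 genes passed the adjusted p, all of them higher, against 1.35% of all genes. Of these 4 genes, 2 also reached 1.5-fold. Tfrc is named after its values were seen. Plod2 was at 0.11 (edgeR adjusted p = 0.754).

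**Figure D5:**
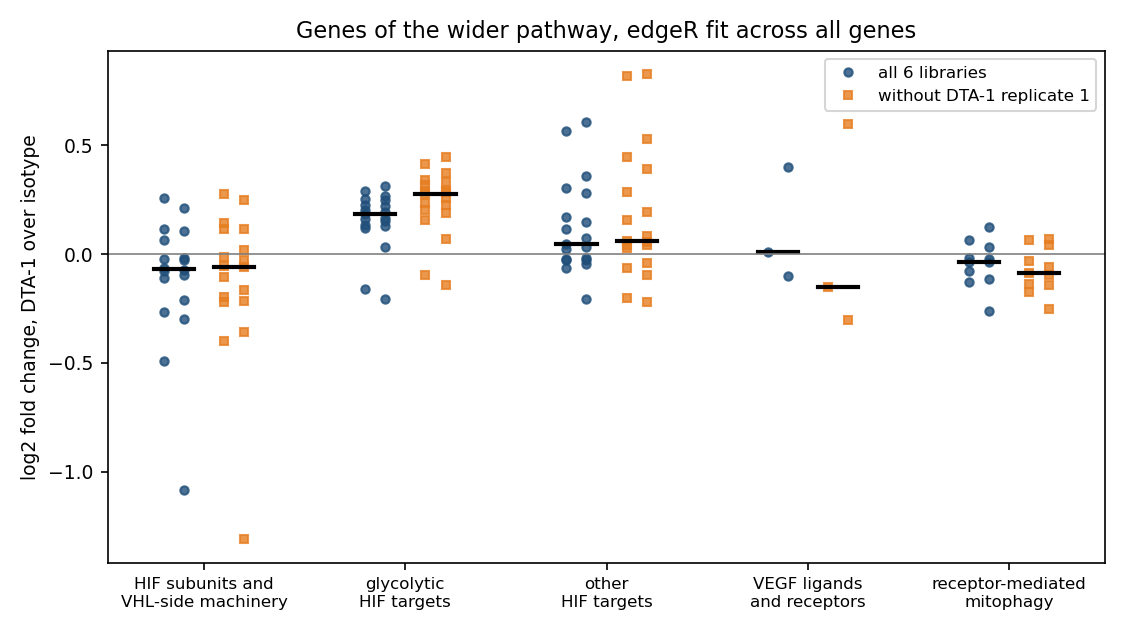
Log2 ratio of DTA-1 over isotype control for the genes of the 5 pathway lists that were tested with all 6 libraries (blue circles), and for the same genes without DTA-1 replicate 1 (orange squares). Black bars are the medians of the points shown. Of the glycolytic targets 17 of 19 lie above 0, and Bhlhe40 and P4ha2 are the uppermost points of the other HIF targets.

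Around Vegfa, the ligand genes Vegfb and Vegfc had 12.9 ± 1.98 and 22.3 ± 1.08 normalized counts with isotype control, against 13.0 ± 2.46 and 20.8 ± 4.79 in DTA-1 (± SD of 3 libraries). The VEGF receptor genes were near the limit of detection, with 0 counts in all libraries for Flt4, 5 in total for Kdr and 12 in total for Flt1. The coreceptor gene Nrp1 had 9.14 ± 1.19 and 12.1 ± 3.39 normalized counts (± SD of 3 libraries), with a log2 ratio of 0.40 (SE 0.22, edgeR adjusted p = 0.738). Of the 9 genes of this list 3 were tested and 0 were differentially expressed by edgeR, limma-trend or DESeq2, nor did any have an unadjusted p under 0.05 with 1.5-fold (0 genes). The median log2 ratio of the 3 was 0.01. It was -0.06 without DTA-1 replicate 1, and -0.22 both without the low-count filter and by DESeq2's Wald test, where 8 genes entered.

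Around Bnip3, a list of mitophagy receptors and their binding partners had 11 of 12 genes tested, of which 3 stood higher and 8 lower in DTA-1. By edgeR, limma-trend and DESeq2 0 genes were differentially expressed (also 0 at an unadjusted p with 1.5-fold), and the median log2 ratio was -0.04, which turned to 0.03 without isotype control replicate 1. In 4 of the 11 genes (Phb2, Pink1, Map1lc3a and Map1lc3b) every DTA-1 library lay below every isotype control library, against 6.03% of all genes tested, and in 0 genes above. Phb2, Map1lc3a and Map1lc3b, named after their values were seen, had log2 ratios of -0.08, -0.26 and -0.11 (edgeR adjusted p = 0.828, 0.772 and 0.752). Fkbp8 and Gabarap had log2 ratios of -0.04 and 0.06 (edgeR adjusted p = 0.923 and 0.850). Pink1, the kinase gene that marks damaged mitochondria, had 347 ± 16.8 normalized counts with isotype control and 317 ± 5.25 with DTA-1 (± SD of 3 libraries). Its log2 ratio was -0.13 (SE 0.06, edgeR adjusted p = 0.698). Bnip3l, the close relative of Bnip3, is named here after its values were seen. It had 153 ± 3.33 and 157 ± 4.71 normalized counts (± SD of 3 libraries) and a log2 ratio of 0.03.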

How the data were processed

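RNA was sequenced from 6 ILC2 libraries, 3 per group, each from 10 ng of RNA. The authors aligned the reads and quantified genes with Partek, and deposited expected counts (estimated reads per gene, not normalized). The submitters' processing notes also list STAR 2.5.3a, bcl2fastq 2.17.1.14 and mm10. The annotation release and use of strand are not given in the sources used here. The deposited start and end equalled those of GENCODE M21 for 47741 of 49721 matching symbols and for 8 of the 9 genes (Epas1 differed at its start). The last base was taken as the base before the deposited stop.

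Expected counts were rounded, filtered (edgeR filterByExpr by group) and scaled by TMM. DTA-1 was compared with isotype control with the quasi-likelihood test of edgeR, its p values adjusted by Benjamini-Hochberg over 14361 genes (R 4.3.3, edgeR 4.0.16, limma 3.58.1, DESeq2 1.42.0). Standard errors were computed from the fold change and its F statistic. The procedure was tested on simulated data (14135 genes), where 185 of 200 genes changed by 2-fold were recovered, with 14 calls among the others. The changed genes were drawn from those with higher counts, and every gene had the same dispersion (spread beyond counting error) of 0.0256. No simulated library was made to differ from its group as DTA-1 replicate 1 did. The recovery therefore cannot be carried over to the 6 libraries. Recovery of changes smaller than 2-fold was not tested, nor was recovery in the 6 libraries themselves. Plots were drawn in Python 3.11.15 with matplotlib 3.10.9. Exon lengths are merged GENCODE exons.

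The 9 genes and the lists were chosen with earlier results of these data known. The lists, from general knowledge, were HIF partners and regulators, glycolytic HIF targets, other HIF targets, VEGF ligands and receptors, mitophagy receptors, and markers of ILC2s and of endothelial cells, fibroblasts, macrophages, adipocytes and T cells. Genes named from a pathway list are those differentially expressed with all libraries or without DTA-1 replicate 1, the 3 with the highest mean, and others said to be named after their values were seen. The 5 genes nearest to Epas1 are named as well. Alternatives were DESeq2's size factors, total counts, DESeq2's Wald test, limma-trend (prior count 2), no filter, a minimum of 10 counts per library, blocking on the replicate number, omission of each library, an unadjusted p and no fold limit.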

Additional observations from a re-analysis of the deposited data

How the results depend on the processing

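The count of differentially expressed genes, 0 with all libraries, became 20 with DESeq2's Wald test, 337 with the unadjusted p, 2 without the low-count filter (Ctgf and Pdgfra) and 1 with the replicate number as a block (Chil3), the genes of these small counts being named after their values were seen. With each library left out it ranged from 0 to 111, the latter without DTA-1 replicate 1, and it was 253 without that library and without a fold limit, an alternative chosen after seeing the data. The focus on DTA-1 replicate 1 also came from its values in these data. The labels do not say whether the replicate numbers pair the libraries. Over all genes, same-numbered libraries had correlations of their deviations from the group mean of -0.00690, -0.00285 and 0.0152, and the block changed none of the list counts. These values cannot settle whether the libraries are paired. The lists stayed at 0 genes except for 1 with the unadjusted p for the HIF partners (Hif3a) and for the other HIF targets (Bhlhe40). Without DTA-1 replicate 1 the other HIF targets had 2, and with no fold limit as well they had 4 and the glycolytic targets 8, while no other omission of a library moved a list from 0.
Of the 117 recomputed log2 ratios of the 9 genes, most moved by less than the SE of the fit with all libraries. Larger moves were those of Hif1an from -0.03 to -0.35 and of Bnip3 from 0.23 to 0.15 without DTA-1 replicate 2. Egln1 also moved by more than its SE, from 0.09 to 0.20 without DTA-1 replicate 1. The sign changed with a left-out library for Egln3 and Hif1an. Small log2 ratios of named list genes reversed with the library left out: Elob ran from -0.0844 (without isotype control replicate 2) to 0.0364 (without isotype control replicate 1), Rbx1 from -0.0540 (without DTA-1 replicate 2) to 0.0219 (without isotype control replicate 1), Vegfb from -0.153 (without DTA-1 replicate 1) to 0.139 (without isotype control replicate 1), and Vegfc from -0.302 (without DTA-1 replicate 1) to 0.0207 (without DTA-1 replicate 2). Vegfb was also at -0.0215 with total counts. The median log2 ratio turned to 0.03 without isotype control replicate 1 for both the HIF partners and the mitophagy list, and to -0.22 for the VEGF list without the filter and with DESeq2. Of the 5 genes nearest to Epas1, 4 were also among the 5 nearest with a pseudocount of 0.1. Epas1 rests on 235 to 416 counts per library, and genes under 3 counts cannot be compared at this depth.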
